A study of Mus musculus with 15 samples.

Results

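The comparison described here sets 3 arrays of mouse auditory nerve taken 1 day after a loud noise against 3 taken immediately after it, 6 of the 15 arrays of the study. Its members are the 34945 probe sets that the platform annotation pairs with 1 gene symbol, read as 18193 genes. The animals of both groups were CBA/CaJ mice aged 5 to 12 weeks exposed for 2 h to a noise band 1 octave wide, from 8 to 16 kHz, at a level of 106 dB SPL, with no genetic change or drug named by the labels. Per the labels, 1 sample joined the nerves of both ears of a single animal, so each array is a separate animal. The tissue was the modiolus, the bony core of the cochlea that holds the nerve, stripped of its bony shell and lateral wall and of most sensory epithelium. Unexposed control animals of the same strain and age range, 3 arrays, are quoted beside the noise groups, and the other 6 arrays, taken at 7 and 14 days, served to estimate the spread. The question put to the data is how the transcripts of early activity give way to those of inflammation between the end of the noise and the next day.

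Strong stimulation of a cell is followed within minutes to hours by immediate early genes, which need no new protein for their transcription. Many of them carry CRE sites, bound by CREB family factors after cAMP or calcium signals, and several of their products are transcription factors or brakes on the signal that induced them. Tissue injury is answered more slowly by chemokines, which draw leukocytes, by the complement and lysosomal genes of macrophages, and by genes that interferon turns on. Macrophages live in the normal cochlea, and monocyte-derived cells are known to enter it after noise.

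Sex was not balanced between the groups. The immediate group held 2 females and 1 male, replicate 3, while all 3 animals at 1 day were male and all 3 controls female. Xist and the Y-linked gene Eif2s3y matched the labelled sex in all 6 arrays. Xist in the male immediate array, replicate 3, read 6.48, above the 5.13 to 5.24 of the 1-day males. The nerve itself was well represented. Over the 6 arrays the myelin gene Mbp lay between 13.89 and 14.02 on the log2 intensity scale, Pmp22 between 13.19 and 13.27, and the neurofilament gene Nefl between 13.19 and 13.50. The bone gene Dmp1 (10.57 to 12.02) and the otic fibrocyte gene Otos (13.21 to 13.95) were also high. As a sign of RNA quality, the beta-actin control read higher at its 3′ than at its 5′ end by 0.51 to 0.53 immediately after noise and by 0.45 to 0.50 at 1 day. For Gapdh the same measure was -0.27 to -0.25 and -0.27 to -0.23. Other controls were less even between the groups. The transferrin receptor control differed by -1.07 at its 5′ and -0.48 at its 3′ end, and 18S RNA by -0.60 and -0.14. Whether RNA quality differed between the groups was not tested. On the first principal component, with 20.8% of the variance, the immediate arrays lay at -6.1, -2.1 and 3.1 and the 1-day arrays at 13.8, 22.4 and 16.3.

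Between the end of the noise and the next day, 548 genes rose and 597 fell, among 13644 tested. A gene was called when limma's adjusted p, by Benjamini-Hochberg over all tested genes, lay under 0.05. That is 8.39% of the genes tested, 4.02% higher and 4.38% lower at 1 day. The changes were mostly small. The median called rise was 0.33 and the median called fall -0.38 on the log2 scale, and 24 rises and 11 falls reached 2-fold, while the median over all genes was 0.01. Of the 1145 called genes, 1136 had no overlap between the 3 arrays of each group. Over all tested genes, 15.4% had every 1-day array above every immediate array, and 14.0% had every one below. By itself, 1 array moved the count of calls a good deal, from 1145 to 382 without immediate replicate 3 and to 442 without 1-day replicate 2. With sex as a term, 652 genes were called (4.78%), 254 higher (1.86%) and 398 lower (2.92%), of which 577 were among the 1145. All 1145 kept their sign in that fit, and the median size of their differences was 0.37 there and 0.36 without the term. Among male arrays alone, with 1 immediate animal whose spread was assumed to be that of the other groups, this median was 0.38. That animal's array also took part in the main calls. For the 1136 genes without overlap, the sign in males was therefore fixed in advance and is no separate check. At the level of probe sets, 1716 of 34945 were called (4.91%), 753 higher (2.15%) and 963 lower (2.76%), and 1408 genes had at least 1 called probe set. Of probe sets without a single gene, 1.47% were called.

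**Figure D1:**
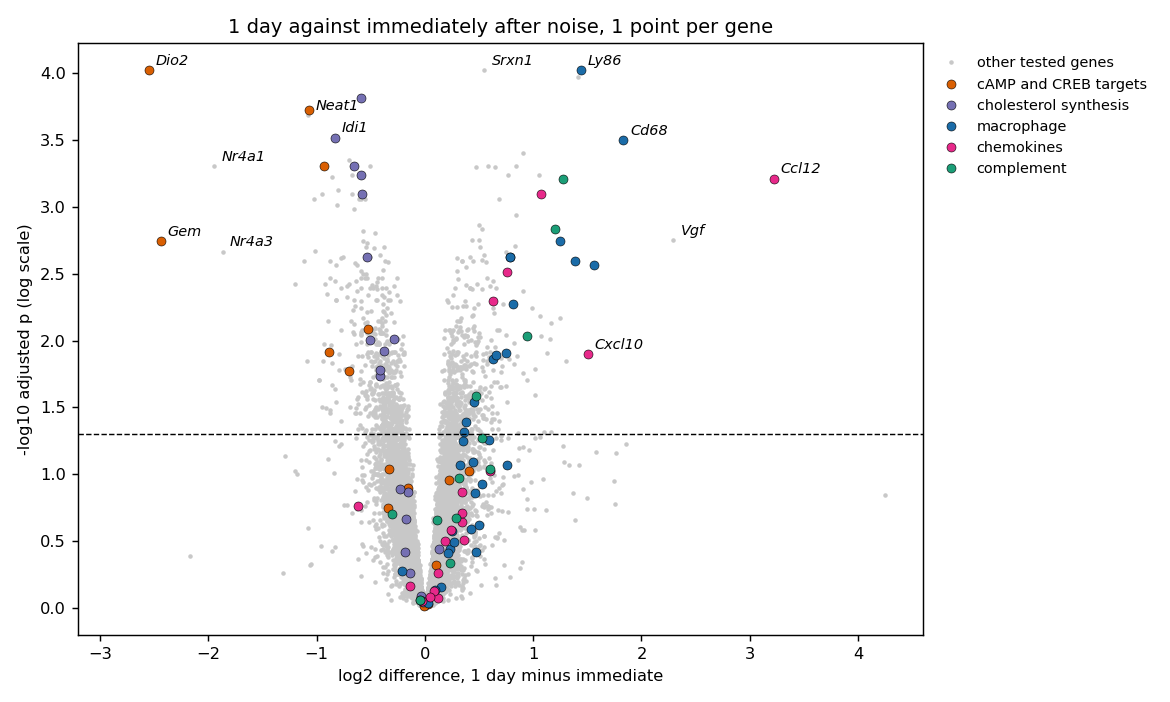
Each point is a tested gene. The x axis is the log2 difference, 1 day minus immediate, and the y axis the negative log10 of limma's adjusted p, with a dashed line at 0.05. Coloured points are members of 5 gene lists: called cAMP target and sterol genes lie on the left, with Dio2 at -2.55, and called chemokine, macrophage and complement genes on the right, with Ccl12 at 3.22. The uncalled point at the far right is the Y-linked gene Eif2s3y, and Xist, at -4.91, lies outside the axis.

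The largest called falls, of Dio2 and Gem, were of genes that cAMP and CREB are known to drive. Of 15 tested members of the list of cAMP and CREB targets, 7 fell and 0 rose (all genes 4.38% and 4.02%). Their median difference was -0.34 (all genes 0.01). Dio2, whose enzyme turns thyroxine into active thyroid hormone, had levels of 9.11, 9.09 and 9.64 immediately after noise and 6.67, 6.81 and 6.71 at 1 day. The 1-day arrays lay within the controls' range of 6.62 to 7.40, and no immediate array did. Dio2 fell by 2.55 ± 0.22 (SE, n = 3 and 3, limma adjusted p = 9.47e-05), a 5.86-fold change, and all 3 of its probe sets were called. Gem, a small GTPase that restrains voltage-gated calcium channels, went from 7.34, 7.31 and 8.83 to 5.54, 5.37 and 5.25. Its 3 controls lay between 4.87 and 5.25, so the 1-day arrays stood close to the unexposed level. The fall of Gem was 2.44 ± 0.36 (limma adjusted p = 0.00181), and male arrays alone gave -3.44. Rgs2, which shortens signalling by G protein-coupled receptors, lay at 11.07, 10.75 and 11.17 and then at 9.86, 9.96 and 9.96. It fell by 1.07 ± 0.11 (limma adjusted p = 0.000189), with no overlap between the groups, and its 1-day arrays were close to the controls at 9.94 to 10.14.

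The other 4 called members of this list act as brakes on the cAMP signal. Crem, which encodes repressors of CREB-driven transcription among its products, went from 7.12, 6.96 and 7.43 to 6.27, 6.24 and 6.22. Its fall was 0.93 ± 0.11 (limma adjusted p = 0.000497). Every 1-day array lay under the lowest control, 6.28. Sik1, a kinase that holds back the CREB coactivators, fell by 0.70 ± 0.16 (limma adjusted p = 0.0169). The phosphodiesterases Pde10a and Pde4d, which break down cyclic nucleotides, fell by 0.88 ± 0.19 (limma adjusted p = 0.0122) and 0.53 ± 0.10 (limma adjusted p = 0.00819). These smaller falls were less stable than those of Dio2, Gem, Rgs2 and Crem. The call of Sik1 ended without immediate replicate 1 (adjusted p = 0.0655), 1-day replicate 1 (0.0622) or 1-day replicate 3 (0.0551), and that of Pde10a without immediate replicate 3 (0.0644). The mean over both probe sets of Pde4d gave -0.23 (adjusted p = 0.154). Nr4a2, Pde4b and Per1 of the same list were not called, at -0.34, -0.33 and 0.41.

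**Figure D2:**
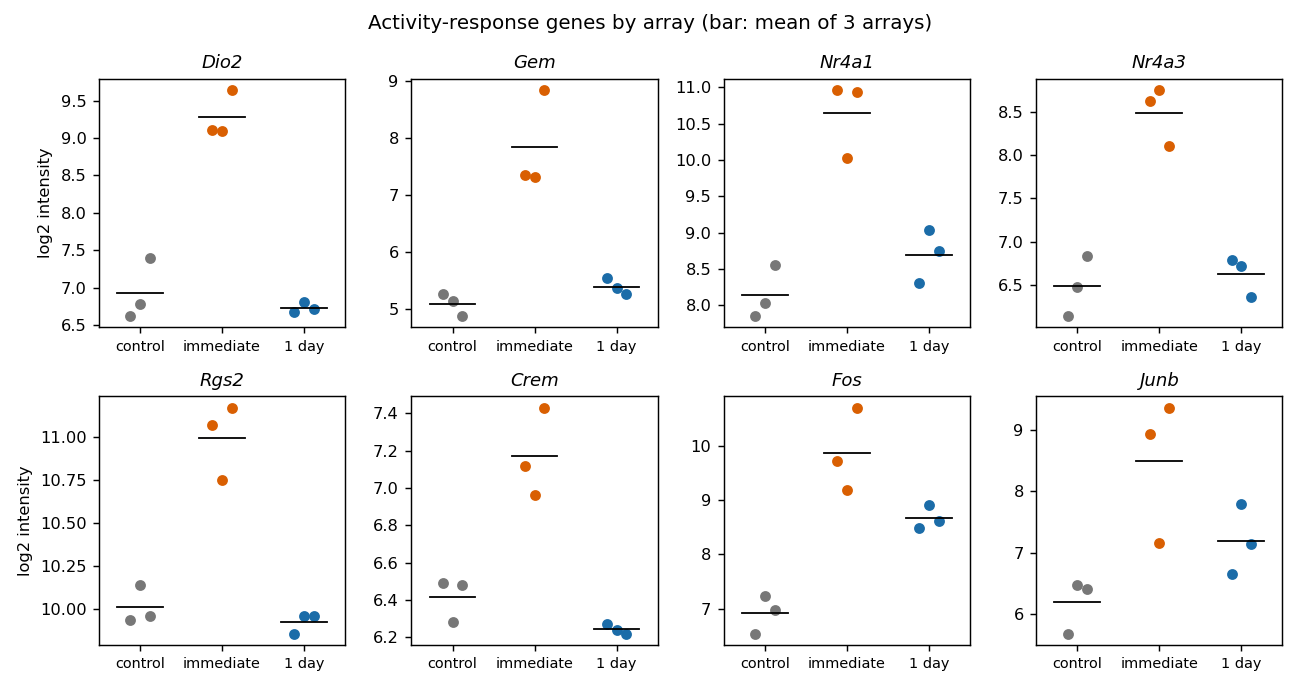
Log2 intensity of 8 early genes on each array of control, immediate and 1-day animals, with points in replicate order from left to right and a bar at the mean of 3 arrays. Dio2, Gem, Nr4a3, Rgs2 and Crem stand at or near the control level at 1 day, while all 3 Fos arrays at 1 day lie above all 3 controls and Junb overlaps between the noise groups. The y axes differ between panels and do not start at 0.

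Among the NR4A, EGR, KLF and other early transcription factor genes, 4 of 18 tested fell and 0 rose (all genes 4.38% and 4.02%). Their median was -0.35. Nr4a1, an orphan nuclear receptor gene induced by activity in neurons and many other cells, stood at 10.96, 10.03 and 10.93 immediately after noise. At 1 day it stood at 8.31, 9.04 and 8.74, below all 3 immediate arrays and still overlapping its controls (7.85 to 8.55). The fall was 1.94 ± 0.23 (limma adjusted p = 0.000497). Nr4a3, of the same receptor family, went from 8.62, 8.75 and 8.10 to 6.79, 6.72 and 6.36. Its fall was 1.87 ± 0.28 (limma adjusted p = 0.00216), but 1 of its 3 probe sets was called, and their mean fell by 0.69. Maff, a small MAF factor, fell by 0.83 ± 0.20 (limma adjusted p = 0.0230). Btg2, an antiproliferative gene, fell by 0.95 ± 0.25 (limma adjusted p = 0.0313), and its groups touched, since immediate replicate 2 and 1-day replicate 2 both read 7.85. The calls of these last genes were fragile. Maff was not called without immediate replicate 2 (adjusted p = 0.0533), immediate replicate 3 (0.104), 1-day replicate 1 (0.0650) or 1-day replicate 3 (0.0897). Btg2 was not called with any 1 array left out other than immediate replicate 2, with adjusted p from 0.0507 to 0.140. The count for the list was 2 without immediate replicate 3, 1-day replicate 1 or 1-day replicate 3.

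AP-1, the dimer of FOS and JUN proteins, had 0 of its 6 tested genes called by limma in either direction, with a median of -0.46. Fos lay at 9.72, 9.19 and 10.71 immediately and at 8.49, 8.91 and 8.62 at 1 day, without overlap. The difference was -1.20 ± 0.43 (limma adjusted p = 0.0948). All 3 arrays at 1 day stood above the controls, which lay between 6.54 and 7.24, and the difference from control was still 1.76 (limma adjusted p = 0.0393), against 2.96 immediately (limma adjusted p = 0.00480). Junb read 8.93, 7.16 and 9.36 immediately and 6.65, 7.79 and 7.14 at 1 day, a difference of -1.29 ± 0.42 (limma adjusted p = 0.0735). Immediate replicate 2 was the low array. Without it the difference was -1.95, and Junb passed (adjusted p = 0.00304). The zinc finger factor Egr1 went from 10.70, 9.37 and 11.32 to 8.72, 9.84 and 9.59, with overlap (-1.08 ± 0.56, limma adjusted p = 0.252). Dusp1, a phosphatase that ends MAP kinase signals, gave -0.58 ± 0.22 (limma adjusted p = 0.111). For Egr1, as for Junb, immediate replicate 2 was the lowest array of its group. Fosl2 gave -0.89 ± 0.30 (limma adjusted p = 0.0765), while Jun and Jund differed by 0.01 and -0.02. Fos and Fosl2 passed in a fit of the 6 arrays alone, with limma adjusted p of 0.0336 and 0.0114. Fos also passed with array weights (0.0397) and the replicate block (0.0306), and Junb with array weights (0.0449). With sex as a term, 0 of the 6 AP-1 genes passed. By limma, 3 of the 6 AP-1 genes were lower at an unadjusted p under 0.05. The share of all tested genes under this unadjusted cut was not counted, here or for later lists. It is at least the 8.39% called by adjusted p. Of 13 tested genes of MAP kinase feedback, 0 were called in either direction by limma, while 6 were lower and 1 higher at an unadjusted p under 0.05, with a median of -0.17. One of them, Errfi1, a brake on the EGF receptor, passed with sex as a term (-0.87, limma adjusted p = 0.0223) and without immediate replicate 1 (-0.83, limma adjusted p = 0.0283). Among other early effector genes, 2 of 10 tested fell, the kinase gene Plk2 by 0.72 ± 0.13 (limma adjusted p = 0.00469) and the synaptic scaffold gene Homer1 by 0.25 ± 0.07 (limma adjusted p = 0.0332). The call of Homer1 ended with any 1 of the 6 arrays left out, which left Plk2 alone, with adjusted p from 0.0572 to 0.106, and with sex as a term (0.0512).

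The promoter of Nr4a1 is printed as that of a called early gene, in the set chosen for printing, with an entry in the promoter table. RefSeq sequence of build GRCm38.p6 covers 250 bases before to 50 after the annotated start, here chr15:101266596-101266895 on the plus strand. Capitals mark matches to any of 6 motifs searched on both strands. These were the CRE (TGACGTCA), a CRE-like heptamer (TGCGTCA), the AP-1 site (TGANTCA), the CArG box, the interferon element ISRE (GAAA, any 2 bases and GAAA again) and the NF-kB site.
Nr4a1: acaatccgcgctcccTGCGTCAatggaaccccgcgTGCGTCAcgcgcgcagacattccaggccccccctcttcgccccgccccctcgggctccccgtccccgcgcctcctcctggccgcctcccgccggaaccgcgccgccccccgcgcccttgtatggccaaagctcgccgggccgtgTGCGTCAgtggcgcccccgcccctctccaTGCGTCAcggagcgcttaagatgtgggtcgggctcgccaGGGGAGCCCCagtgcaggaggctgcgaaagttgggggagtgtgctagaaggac
The window holds no full CRE. It has 4 CRE-like heptamers, with first bases at -235, -215, -71 and -42 from the start, and 1 NF-kB match across the start. Over all promoter windows of this length, 2.12% held a CRE-like heptamer, as did 3.28% of windows of tested genes, 4.15% of those of genes called lower and 3.5% of those called higher. Full CRE sites were found in 1.79% of all windows, 2.74% of windows of tested genes, 5.53% of the 651 windows of genes called lower and 1.22% of the 572 windows of genes called higher. AP-1 letters stood in 5.21% of windows of tested genes, 4.45% of those called lower and 6.47% of those called higher. These shares describe letters in a window and say nothing of binding.

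Other large falls were of genes outside these lists. Vdr, the vitamin D receptor gene, went from 7.21, 7.22 and 7.16 to 5.96, 6.18 and 5.86, a fall of 1.20 ± 0.20 (limma adjusted p = 0.00380), and both of its probe sets were called. Neat1, a long noncoding RNA that builds nuclear paraspeckles, fell by 1.08 ± 0.11 (limma adjusted p = 0.000205), from 10.14, 10.28 and 10.63 to 9.08, 9.33 and 9.40. The other probe set of Neat1, with means of 7.56 and 7.40, differed by -0.16 (limma adjusted p = 0.642 over probe sets). S1pr3, a receptor for sphingosine 1-phosphate, fell by 1.01 ± 0.15 (limma adjusted p = 0.00212). In these genes the 1-day arrays lay below all immediate arrays, and Vdr and Neat1 were higher immediately after noise than in controls, by 0.97 (limma adjusted p = 0.0366) and 0.95 (limma adjusted p = 0.00131). Thap2, of a family of zinc finger proteins, showed another course. Its levels immediately after noise, 7.47, 7.27 and 7.38, overlapped the controls, and at 1 day it was at 6.69, 6.10 and 5.97, under both groups. It fell by 1.12 ± 0.18 (limma adjusted p = 0.00253). The other probe set of Thap2, with means of 4.55 and 4.37, differed by -0.19 (limma adjusted p = 0.451 over probe sets). 1500004A13Rik and 9530059O14Rik fell by 1.02 ± 0.14 (limma adjusted p = 0.000864) and 0.95 ± 0.13 (limma adjusted p = 0.000794). Zfp420 fell by 1.09 ± 0.24 (limma adjusted p = 0.0143), and its call ended without immediate replicate 1 (0.0532) or 3 (0.0591). Apold1, an early gene of vascular endothelium, fell by 0.98 ± 0.23 (limma adjusted p = 0.0196), but was not called when immediate replicate 1 or 3 or 1-day replicate 1 or 3 was left out, with adjusted p from 0.0562 to 0.0793. Cebpb, a factor of the acute response, fell by 0.91 ± 0.24 (limma adjusted p = 0.0321), from 10.99, 10.52 and 11.16 to 9.49, 10.41 and 10.03. Its call ended without the same 4 arrays, with adjusted p from 0.0748 to 0.130. Nfe2l2, the factor behind antioxidant genes, cannot be given a direction, since its probe sets disagreed. The brighter fell by 0.97 ± 0.23 (limma adjusted p = 0.0198) and lost its call with sex as a term (0.0601) and without immediate replicate 1 or 3 or 1-day replicate 2 or 3 (0.0537 to 0.0825), while the other differed by 1.99.

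Of 19 tested genes of cholesterol synthesis, 11 fell and 0 rose (all genes 4.38% and 4.02%), with a median of -0.37. The count was 10 in the fit that included sex, and 9 to 11 when 1 array was left out. Schwann cells make most of the sterol of their myelin themselves, and the genes of this pathway share the factor SREBP2. Idi1, which isomerises the pathway's isoprene unit, had levels of 9.37, 9.52 and 9.49 immediately and 8.76, 8.57 and 8.55 at 1 day, a fall of 0.83 ± 0.09 (limma adjusted p = 0.000302). Hmgcs1, which makes HMG-CoA, went from 11.70, 11.80 and 11.77 to 11.09, 11.22 and 11.20, a fall of 0.59 ± 0.06 (limma adjusted p = 0.000153). In both genes the immediate arrays were above all controls and the 1-day arrays below them. Against the same controls, Hmgcs1 was 0.40 higher immediately (limma adjusted p = 0.00481) and Idi1 0.58 higher (limma adjusted p = 0.00823), while at 1 day they differed by -0.19 and -0.25, which did not pass. The control arrays ran from 11.27 to 11.44 for Hmgcs1 and from 8.78 to 9.04 for Idi1. Later steps of the pathway fell by similar amounts. Msmo1, a sterol methyl oxidase gene, fell by 0.65 ± 0.08 (limma adjusted p = 0.000497). The squalene synthase gene Fdft1 fell by 0.59 ± 0.08 (limma adjusted p = 0.000572), though the mean over its 4 probe sets was -0.24 and did not pass. Sqle, which makes squalene epoxide, fell by 0.58 ± 0.08 (limma adjusted p = 0.000794). Falls were also called for the mevalonate genes Mvd (0.50) and Mvk (0.41), for the sterol carrier gene Stard4 (0.53) and for Dhcr7 (0.41), Cyp51 (0.37) and Sc5d (0.29) of the last steps. Among these the call of Mvk ended with sex as a term (0.0530) and without immediate replicate 2 (0.0655) or 1-day replicate 1 (0.0641), and the mean over its probe sets was -0.24 (0.0689). That of Dhcr7 ended without immediate replicate 3 or 1-day replicate 2 or 3, with adjusted p from 0.0604 to 0.0875, and that of Cyp51 without immediate replicate 3 (0.0548) or 1-day replicate 2 (0.0542).

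Both enzymes of myelin galactolipids in the lists moved the same way. Fa2h, which makes the hydroxylated fatty acids of myelin galactolipids, went from 9.61, 9.44 and 9.77 to 8.78, 8.73 and 8.91, a fall of 0.80 ± 0.10 (limma adjusted p = 0.000750). Ugt8a, which adds the galactose, went from 11.67, 11.66 and 11.71 to 11.15, 11.22 and 11.34, a fall of 0.44 ± 0.08 (limma adjusted p = 0.00408). For both genes every 1-day array lay under every control. Of 17 tested Schwann cell and myelin genes, 4 fell and 0 rose, with a median of -0.18, while 4.38% of all tested genes fell. By limma, 9 of the 17 were lower and 2 higher at an unadjusted p under 0.05. Of the 4 called, 2 were Cnp and Mal with small falls of 0.19 and 0.18. The mean over the probe sets of Cnp did not pass (-0.14, adjusted p = 0.140). The count was 2 without immediate replicate 3, where Cnp (0.0540) and Mal (0.128) were lost, and the call of Mal ended without each other array too, with adjusted p from 0.0534 to 0.0922. The structural myelin genes Mbp and Pmp22 differed by -0.05 and 0.03. Of 14 tested oligodendrocyte genes, the 2 that fell were Ugt8a and Cnp, which both lists hold. Cdh2, an adhesion gene of immature Schwann cells, fell by 0.44 ± 0.09 (limma adjusted p = 0.0126), alone among 13 tested genes of the dedifferentiation list, and not without immediate replicate 3 (0.0644) or 1-day replicate 2 (0.0545).

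**Figure D3:**
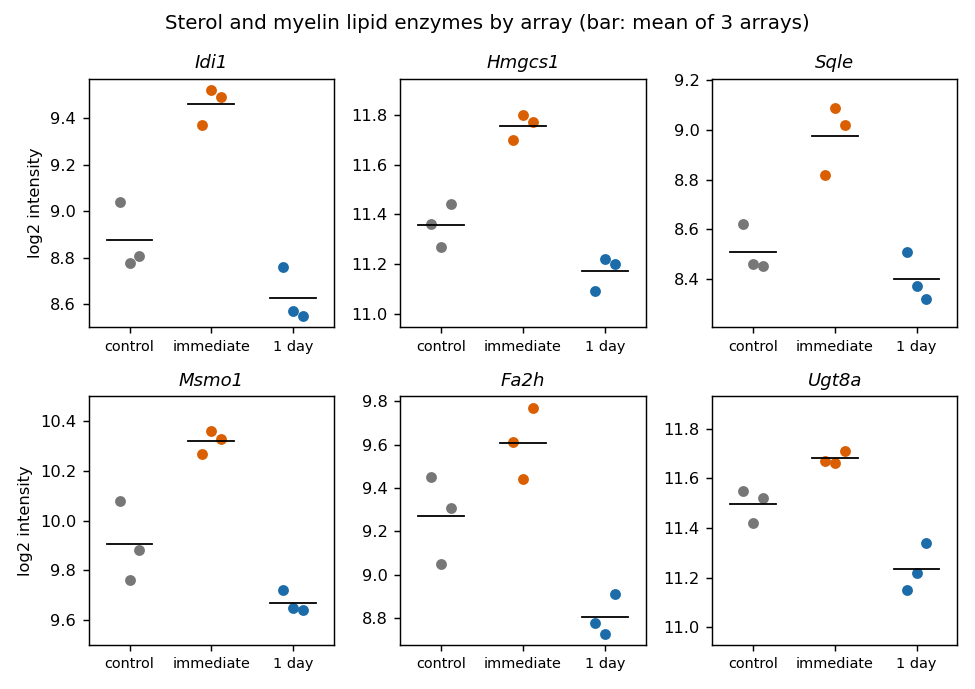
Log2 intensity of 4 sterol enzymes and 2 galactolipid enzymes on each control, immediate and 1-day array, with a bar at the mean of 3 arrays. In every panel all 1-day arrays lie below all immediate arrays, by 0.83 in Idi1 and 0.44 in Ugt8a between group means. Controls lie between them, apart from an overlap with the immediate arrays in Fa2h and with the 1-day arrays in Sqle. The y axes differ between panels and do not start at 0.

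Of 20 tested chemokine genes, 5 rose and 0 fell (all genes 4.02% and 4.38%), with a median of 0.29 and 16 positive differences. With any 1 array left out, 4 to 6 rose. In bulk tissue, more cells of a type and more RNA per cell cannot be told apart, here and in all lists below. Ccl12, a monocyte chemoattractant that mice have beside Ccl2, rose from a low level. It lay at 4.51, 4.37 and 5.65 immediately after noise and at 6.98, 8.52 and 8.69 at 1 day. Immediate replicates 1 and 2 lay within the range of the controls, 4.13 to 4.66, and every 1-day array was far above both groups. The rise was 3.22 ± 0.41 (limma adjusted p = 0.000616). The controls and immediate replicates 1 and 2 lay under 4.70, the level below which genes were not tested, so the size of this difference is uncertain. The same limit holds for other genes with a low level before 1 day (Cxcl10, Cxcl11, Ccl5, Ms4a6d and Vgf). The filter used the mean over all 15 arrays, so high 1-day values also helped such genes to be tested. In the fit without the filter, Ccl12 and these genes were still called. Cxcl10, an interferon-induced chemokine for T and NK cells, went from 4.68, 5.46 and 5.00 to 5.71, 7.29 and 6.65. Its groups did not overlap, and the rise was 1.5 ± 0.32 (limma adjusted p = 0.0126). The call ended by a narrow margin without immediate replicate 1 (0.0505), immediate replicate 3 (0.0501) or 1-day replicate 2 (0.0546). Cxcl11, which shares the receptor of Cxcl10, rose by 1.07 ± 0.14 (limma adjusted p = 0.000794) in its brighter probe set, and the other of its 2 probe sets was not called. Ccl5 rose by 0.76 ± 0.12 (limma adjusted p = 0.00309). Cxcl12, a chemokine that stromal cells make at rest, rose by 0.63 ± 0.11 (limma adjusted p = 0.00508) from 9.78, 9.89 and 10.05 to 10.50, 10.56 and 10.55. One of its 3 probe sets was called, and their mean gave 0.24 (adjusted p = 0.149). Ccl2 did not follow Ccl12. It read 5.04, 5.11 and 6.53 immediately and 5.44, 5.87 and 5.73 at 1 day, a difference of 0.12 ± 0.28 (limma adjusted p = 0.840). The high array was immediate replicate 3, the male. Without it Ccl2 was 0.61 higher at 1 day and passed (adjusted p = 0.0401), and with sex as a term the difference was -0.16.

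Both called chemokine genes of the set chosen for printing have a promoter in the RefSeq table, shown for contrast with that of Nr4a1. The window of Cxcl10 is chr5:92348840-92349139 on the minus strand, and that of Ccl12 is chr11:82101595-82101894 on the plus strand, with capitals as above.
Cxcl10: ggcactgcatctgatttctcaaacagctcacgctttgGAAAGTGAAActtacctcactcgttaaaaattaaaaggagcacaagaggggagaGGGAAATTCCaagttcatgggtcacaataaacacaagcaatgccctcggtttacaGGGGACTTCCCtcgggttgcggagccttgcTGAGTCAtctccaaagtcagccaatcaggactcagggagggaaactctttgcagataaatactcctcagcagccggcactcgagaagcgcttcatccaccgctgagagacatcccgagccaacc
Ccl12: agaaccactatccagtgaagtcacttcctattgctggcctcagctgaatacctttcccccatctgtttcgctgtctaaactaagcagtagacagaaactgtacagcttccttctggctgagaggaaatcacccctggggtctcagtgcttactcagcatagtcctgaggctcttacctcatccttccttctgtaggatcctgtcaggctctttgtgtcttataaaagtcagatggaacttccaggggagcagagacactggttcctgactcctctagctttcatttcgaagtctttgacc
The Cxcl10 window holds an ISRE match at -213, NF-kB matches at -159 and, overlapping each other, at -104 and -103, and an AP-1 match at -74. In the window of Ccl12 the letters of none of the 6 motifs were found. ISRE letters stood in 5.24% of windows of genes called higher, 3.07% of those called lower and 2.86% of those tested. NF-kB letters stood in 11.19% of windows of genes called higher, 10.45% of those called lower and 10.4% of those tested.

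Macrophage genes rose in 14 of 32 tested and fell in 0, with a median of 0.47, and 31 of the 32 differences were positive. Over all tested genes 4.02% rose. At 1 day every array stood above every immediate array in 24 of them, a separation seen in 15.4% of all tested genes. The mean level over the list was 6.32 to 6.53 in immediate arrays, 6.94 to 7.04 at 1 day and 6.37 to 6.62 in controls. Cd68, a lysosomal membrane protein of macrophages, lay at 6.02, 5.96 and 6.10 immediately and at 7.89, 7.84 and 7.85 at 1 day. Replicates of a group differed by little beside the rise of 1.83 ± 0.20 (limma adjusted p = 0.000315). Ly86, which pairs with a toll-like receptor relative, went from 7.19, 7.06 and 7.20 to 8.62, 8.58 and 8.57, a rise of 1.44 ± 0.13 (limma adjusted p = 9.47e-05). In both genes the groups stood far apart, and the immediate arrays lay near the controls. Cd52, a surface glycoprotein of leukocytes, rose by 1.56 ± 0.25 (limma adjusted p = 0.00272). Ms4a6d rose by 1.38 ± 0.22 (limma adjusted p = 0.00253), from means under the 4.70 limit in the control (4.36) and immediate (4.66) groups to 6.04. Aif1, which encodes the macrophage marker IBA1, rose by 1.25 ± 0.18 (limma adjusted p = 0.00181), from 5.52, 5.25 and 5.22 to 6.42, 6.51 and 6.80. Tyrobp, Fcer1g, Cd53 and Ctss rose by 0.75 to 0.82. Smaller rises were less secure. Without any single array, 10 to 11 of the 32 were called, and with sex as a term 11, a count that includes Clec7a, not among the 14 (0.76, limma adjusted p = 0.0389). The calls lost in that fit were those of Mrc1 (0.63, adjusted p = 0.0593 with the term), Fcgr3 (0.45, 0.0794), Slc11a1 (0.38, 0.0997) and Csf1r (0.36, 0.115). Csf1r and Slc11a1 were also lost with any 1 array left out, with adjusted p from 0.0592 to 0.171 and from 0.0580 to 0.131. Fcgr3 was lost with any 1 array left out other than immediate replicate 3 (0.0647 to 0.0913), Mrc1 without 1-day replicate 2 (0.0529), and Msr1 without immediate replicate 3 (0.0590) or 1-day replicate 3 (0.0548).

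**Figure D4:**
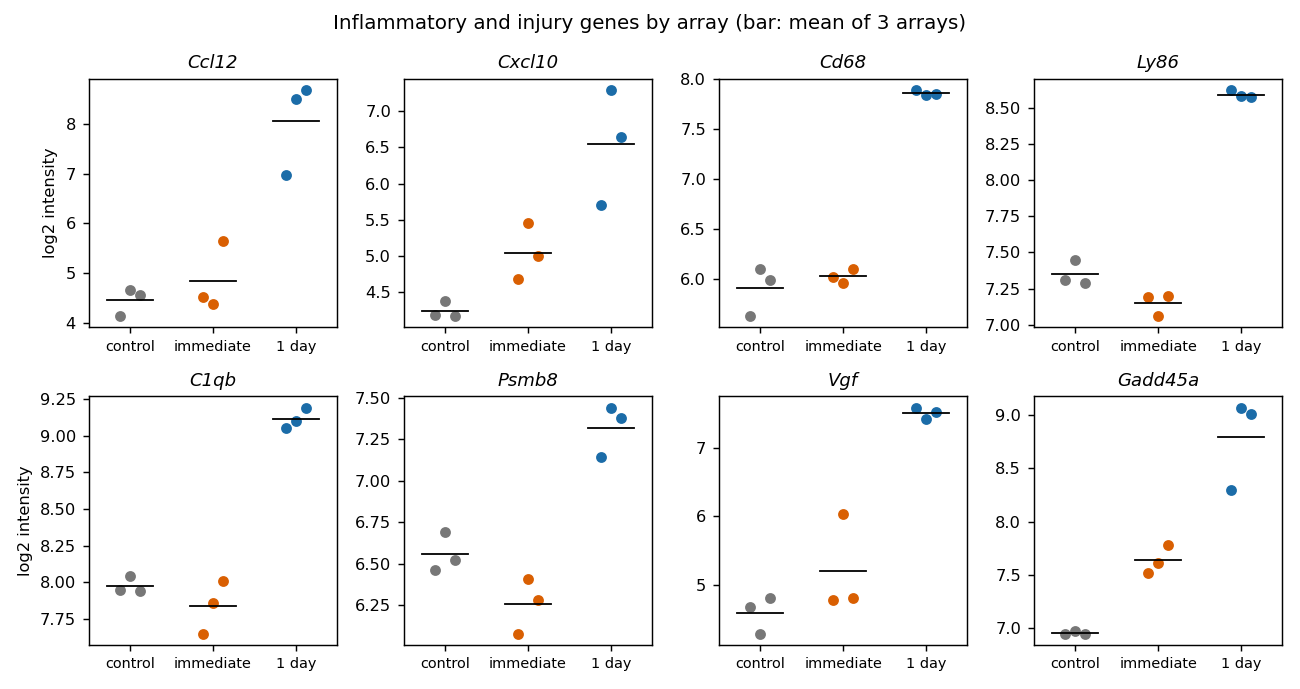
Log2 intensity of 8 genes called higher at 1 day on each control, immediate and 1-day array, with a bar at the mean of 3 arrays. In every panel all 1-day arrays lie above all immediate arrays, by 3.22 between group means in Ccl12 and by 1.06 in Psmb8. In Gadd45a the immediate arrays already lie above the controls. The y axes differ between panels and do not start at 0.

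The complement component C1q is made by macrophages in many tissues. Of 12 tested complement genes 4 rose and 0 fell (all genes 4.02% and 4.38%), with a median of 0.39. The fit with sex called 4, and 3 to 4 were called when 1 array was left out. C1qb went from 7.65, 7.86 and 8.01 to 9.05, 9.10 and 9.19, a rise of 1.27 ± 0.16 (limma adjusted p = 0.000613), and all 3 of its probe sets were called. The other chains of C1q moved with it. C1qc rose by 1.20 ± 0.17 (limma adjusted p = 0.00145) and C1qa by 0.95 ± 0.19 (limma adjusted p = 0.00930). C1s1, a protease of the same complex, rose by 0.47 ± 0.12 (limma adjusted p = 0.0258), but not without immediate replicate 1, 2 or 3 or 1-day replicate 2 or 3 (0.0552 to 0.104). Among genes of phagocytosis and lysosomes, 3 of 17 tested rose, with a median of 0.13. These were Itgb2, the beta chain of leukocyte integrins, by 1.07 ± 0.21 (limma adjusted p = 0.00930), Axl by 0.48 and Ctsb by 0.14. Axl lost its call with any 1 array left out (0.0501 to 0.0988) and with sex as a term (0.0937), and Ctsb with sex as a term (0.0685) and with any 1 array left out other than immediate replicate 2 (0.0562 to 0.113). Among the largest rises were also genes outside these lists. Coro1a, an actin regulator of leukocytes, rose by 1.31 ± 0.29 (limma adjusted p = 0.0143), and not without immediate replicate 1 (0.0513) or 2 (0.0513) or 1-day replicate 2 (0.0579). Mgl2, a lectin of macrophages and dendritic cells, rose by 1.16 ± 0.22 (limma adjusted p = 0.00740). Timp1, an inhibitor of metalloproteinases, rose by 1.25 ± 0.23 (limma adjusted p = 0.00672). Ceacam10 rose by 1.41 ± 0.13 (limma adjusted p = 0.000107), from 7.34, 6.97 and 7.08 to 8.42, 8.64 and 8.57, with 2 of its 3 probe sets called.

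Antigen presentation genes rose in 5 of 14 tested and fell in 0 (all genes 4.02% and 4.38%). Their median was 0.59, and all 14 differences were positive. Psmb8, a subunit of the immunoproteasome, which cuts peptides for MHC class I, went from 6.08, 6.41 and 6.28 to 7.14, 7.44 and 7.38, a rise of 1.06 ± 0.20 (limma adjusted p = 0.00659). Its controls, at 6.46 to 6.69, lay above the immediate arrays and below those at 1 day, and the difference from control was 0.76 (limma adjusted p = 0.0513). H2-DMa, which loads peptides on MHC class II, rose by 0.51 ± 0.10 (limma adjusted p = 0.00938), though not in the mean over its probe sets (0.34, adjusted p = 0.0597), and its 1-day arrays, at 6.59, 6.55 and 6.58, were close to the controls at 6.33 to 6.53. The difference between the noise groups there came with immediate arrays at 6.15, 6.18 and 5.85, all below the controls. With sex as a term 2 members were called, Psmb8 and H2-DMa. Near-identical class I genes share sequence, so probe sets of H2-D1 may read its relatives. The lost ones were Psmb9 (0.70, adjusted p = 0.0774 with the term), the peptide transporter gene Tap1 (0.69, 0.0670) and the class I gene H2-D1 (0.61, 0.124). One of the 4 probe sets of Tap1 was called, and their mean gave 0.18 (adjusted p = 0.144). The count was also 2 without immediate replicate 1 or 3 or 1-day replicate 2 or 3.

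Interferon-response genes gave large differences that mostly did not pass. Of 25 tested, 24 differences were positive and 20 had every 1-day array above every immediate one, with a median of 0.86, but 1 was called, Ifitm3. Over all genes 15.4% had such separation. Ifitm3, a membrane protein that blocks virus entry, lay at 10.38, 10.76 and 11.01 and then at 11.55, 11.94 and 11.96, a rise of 1.10 ± 0.32 (limma adjusted p = 0.0482). It was not called with any 1 array left out (0.0640 to 0.157) or with sex as a term (0.0744). Ifit3, an antiviral RNA-binding protein gene, was at 6.74, 8.10 and 7.56 and then at 8.56, 9.68 and 9.44. The difference of 1.76 ± 0.57 did not pass (limma adjusted p = 0.0693), and replicates of a group differed by over 1 log2 unit. Irf7, the factor that amplifies the interferon response, gave 1.29 ± 0.44 (limma adjusted p = 0.0815), from 5.36, 5.85 and 5.48 to 6.35, 6.81 and 7.39. Rtp4 and Usp18 gave 1.58 ± 0.51 and 1.74 ± 0.65, also without a call. In all of these the 1-day arrays lay above the immediate arrays. The standard errors used the spread of all 5 groups. In a fit of the 6 arrays alone 18 of the 25 genes passed, Ifit3, Irf7, Usp18 and Rtp4 among them. Over all genes, that fit called 653 higher, against 548 in the main fit. The count for the list was 0 with sex as a term, with robust eBayes, without the filter and with any 1 array left out. It was 4 to 7 with array weights, the replicate block or other scalings. The mean level over the list was 6.74 to 7.21 immediately, 7.48 to 8.10 at 1 day and 6.95 to 7.02 in controls.

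Several inflammatory routes showed no call. Of 16 tested genes of NF-kB feedback and its cytokines 0 were called in either direction by limma, while 3 were lower and 0 higher at an unadjusted p under 0.05, with a median of -0.08. Nfkbia, the inhibitor of NF-kB that NF-kB itself induces, lay at 11.18, 11.63 and 11.93 immediately and at 11.32, 11.82 and 11.94 at 1 day (0.11 ± 0.20, limma adjusted p = 0.778). Socs3, which curbs IL-6 family signals, stayed above control at both times. It read 7.67, 7.19 and 9.20 immediately and 7.74, 8.54 and 7.88 at 1 day, with controls at 5.89 to 6.30, and the difference between the noise groups was 0.03 ± 0.39 (limma adjusted p = 0.970). Of 14 tested genes of the IL-6 family and JAK-STAT list, the 1 that rose was Il4ra, by 0.36 (limma adjusted p = 0.0466), and not with sex as a term (0.0775) or without immediate replicate 2 or 3 or 1-day replicate 2 or 3 (0.109 to 0.172). Il6 and Fosb lay under the level tested. Few markers of other blood cells were called. Of 8 tested genes of recruited monocytes 0 were called by limma and 1 was higher at an unadjusted p under 0.05, with a median of 0.10, and the monocyte receptor gene Ccr2 differed by 0.02. Of 10 tested neutrophil genes 0 were called by limma and 0 reached an unadjusted p under 0.05, with a median of -0.27 and list levels of 5.54 to 7.27 immediately and 5.77 to 6.30 at 1 day. Of 5 B cell genes and 17 genes of endothelial adhesion and junctions 0 were called, and 1 and 2 were higher at an unadjusted p under 0.05. Of 6 tested T and NK cell genes 1 rose, Crtam, by 1.05 ± 0.13 (limma adjusted p = 0.000572), from 5.25, 5.24 and 5.38 to 6.47, 6.44 and 6.12. The controls of Crtam, at 5.80 to 6.06, lay between the 2 noise groups, while the T cell receptor component Cd3e differed by 0.04 and Cd8a by 0.00.

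Of 19 tested genes of axon injury and regeneration 3 rose and 2 fell (all genes 4.02% and 4.38%), with a median of 0.11. In bulk tissue these changes are not assigned to neurons. Vgf, a secreted peptide precursor that injured and active neurons make, was at 4.78, 6.04 and 4.81 immediately and at 7.58, 7.42 and 7.51 at 1 day. Its rise of 2.29 ± 0.34 (limma adjusted p = 0.00177) also started from a level near that limit, and the immediate arrays other than replicate 2 lay within the range of the controls (4.30 to 4.81). Gadd45a, a stress gene of injured sensory neurons, also rose. It lay at 6.95 to 6.97 in controls, at 7.52, 7.61 and 7.78 immediately and at 8.30, 9.07 and 9.01 at 1 day, a rise of 1.16 ± 0.23 between the noise groups (limma adjusted p = 0.00969). Atf3, an injury factor of the same neurons, overlapped between the groups, from 7.78, 7.43 and 8.18 to 8.06, 8.62 and 8.55 (0.61 ± 0.27, limma adjusted p = 0.176). Against control, Atf3 was 1.02 higher immediately (limma adjusted p = 0.0919) and 1.64 higher at 1 day (limma adjusted p = 0.00573). Vgf, Gadd45a and Uchl1 were the rises, and the falls were Sox11 (0.38) and Basp1 (0.37 ± 0.06, limma adjusted p = 0.00253). Uchl1 (0.32) was lost with sex as a term (0.0934) and with any 1 array left out other than 1-day replicate 3 (0.0583 to 0.109). Sox11 was lost in the mean over its probe sets (-0.23, adjusted p = 0.166), with sex as a term (0.0667) and without immediate replicate 1 or 3 or 1-day replicate 2 or 3 (0.0711 to 0.119).

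Of 32 tested genes of spiral ganglion neurons, the cells whose axons form the nerve, 8 fell and 2 rose (all genes 4.38% and 4.02%). Their median was -0.14. The falls were small. Slc17a7, the vesicular glutamate transporter of these neurons, fell by 0.44 ± 0.09 (limma adjusted p = 0.0128), from 6.82, 6.65 and 6.88 to 6.31, 6.30 and 6.42. The neurofilament genes Nefm, Nefh and Nefl fell by 0.45, 0.22 and 0.21, the calcium-binding protein gene Calb2 by 0.20, and the channel genes Kcnc1, Scn1a and Kcna2 by 0.35, 0.34 and 0.28. These calls depended on single arrays: 3 genes of the list were lower without immediate replicate 1 or 2 or 1-day replicate 1 or 3, 2 without immediate replicate 3 and 0 without 1-day replicate 2. With sex as a term 5 fell, and the mean over the probe sets of Kcnc1 was -0.17 (adjusted p = 0.293). Uchl1, a ubiquitin hydrolase gene of neurons, was 1 of the rises. Prph, the filament gene of type II neurons, was the other and rose by 0.45 ± 0.10 (limma adjusted p = 0.0172), in 1 of its 4 probe sets, whose mean gave 0.14 (adjusted p = 0.508). It was not called without immediate replicate 3 (0.0891) or 1-day replicate 2 (0.0597) or 3 (0.0505).

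Stress and growth genes changed in small numbers (all genes 4.02% higher and 4.38% lower). Of 12 tested antioxidant genes driven by NRF2, 3 rose and 0 fell, with a median of 0.19. Srxn1, which restores oxidised peroxiredoxins, went from 8.57, 8.65 and 8.54 to 9.09, 9.16 and 9.16, a rise of 0.55 ± 0.05 (limma adjusted p = 9.47e-05). Its immediate arrays overlapped the controls at 8.55 to 8.58, and 3 of its 4 probe sets were called. Sqstm1, an autophagy receptor gene, rose by 0.25 ± 0.05 (limma adjusted p = 0.00843), though not in the mean over its probe sets (0.12, adjusted p = 0.299), and the heme oxygenase gene Hmox1 by 0.42 ± 0.11 (limma adjusted p = 0.0294), the latter not with sex as a term (0.0546) or with any 1 array left out other than 1-day replicate 1 (0.0539 to 0.106). Of 17 tested cell cycle genes 4 rose and 0 fell, with a median of 0.34 and all 17 differences positive. The mean level over the list was 6.58 to 6.64 immediately and 6.95 to 7.22 at 1 day, and the controls, at 6.57 to 7.15, overlapped both. Of 3 erythroid genes 0 were called by limma or reached an unadjusted p under 0.05, with list levels of 5.13 to 5.45 immediately, 5.20 to 6.54 at 1 day and 5.05 to 6.97 in controls. In both lists 1-day replicate 2 and control replicate 3 were the highest arrays of their groups, and the part of erythroid cells in the result was not tested. Mcm6 and Mcm5, of the helicase that opens DNA for replication, rose by 0.72 ± 0.13 (limma adjusted p = 0.00529) and 0.95 ± 0.22 (limma adjusted p = 0.0196). Ccnd1 rose by 0.44 and Mcm2 by 0.34. With sex as a term 2 were called, without Mcm5 (0.0566) and Mcm2 (0.151), and with any 1 array left out 1 to 4. The lowest counts, 1, were without immediate replicate 3 or 1-day replicate 2, and 2 were called without immediate replicate 1 or 2 or 1-day replicate 3. Of 14 heat shock genes 2 rose, Hspb8 (0.52) and Dnajb4 (0.23), and 0 with sex as a term (0.0774 and 0.0545). Hspb8 was lost without immediate replicate 1 or 1-day replicate 2 or 3, with adjusted p from 0.0507 to 0.0647, and Dnajb4 without immediate replicate 3 (0.0501) and in the mean over its probe sets (0.01, adjusted p = 0.975). Of 22 tested genes of the unfolded protein and amino acid stress responses 0 were called by limma, with a median of 0.03, and 4 were higher and 2 lower at an unadjusted p under 0.05. Of 16 glucocorticoid targets 0 were called by limma, with a median of 0.11, and 2 were higher and 2 lower at an unadjusted p under 0.05. Of 18 clock genes 2 rose, Ciart by 0.58 ± 0.13 (limma adjusted p = 0.0150) and Per2 by 0.44 ± 0.11 (limma adjusted p = 0.0274). Ciart lost its call with sex as a term (0.0588) and without immediate replicate 3 or 1-day replicate 2 or 3, with adjusted p from 0.0599 to 0.0712, and Per2 without immediate replicate 1 or 3 or 1-day replicate 1 or 2 (0.0590 to 0.121). The sources used here do not give the hour at which animals were taken. Of 9 tested p53 targets, 1 rose, Gadd45a, and 1 fell, Btg2.

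Among genes of connective tissue, 3 of 10 tested cartilage and tendon genes fell, and 1 of 10 bone genes fell. Of 12 fibroblast genes 1 rose and 2 fell (all genes 4.02% and 4.38%). The cartilage and tendon list had a median of -0.28 and the fibroblast list 1 of 0.01. Col2a1, the main collagen of cartilage, fell by 0.94 ± 0.21 (limma adjusted p = 0.0143), and not without immediate replicate 3 (0.0653). Ucma fell by 0.82 ± 0.13 (limma adjusted p = 0.00272), from 10.47, 10.36 and 10.19 to 9.16, 9.76 and 9.63, and the tendon gene Tnmd by 0.68 ± 0.13 (limma adjusted p = 0.00710). The osteocyte gene Dmp1 fell by 0.86 ± 0.19 (limma adjusted p = 0.0146), and not without immediate replicate 3 (0.0763) or 1-day replicate 1 (0.0538). Bone list levels were 7.97 to 8.67 immediately and 7.76 to 8.10 at 1 day. These tissues lie outside the nerve, and the part of the dissection in the result was not tested. Otos, made by fibrocytes of the cochlear wall, fell by 0.51 ± 0.06 (limma adjusted p = 0.000497), with 1-day arrays at 13.21 to 13.45 against controls at 13.78 to 13.92. Col3a1 fell by 0.82 and Pdgfra rose by 0.34, and both lost their call with sex as a term (0.111 and 0.0786). Without single arrays, Col3a1 was lost in every case but immediate replicate 1 (0.0640 to 0.121) and Pdgfra without immediate replicate 2 or 1-day replicate 2 or 3, with adjusted p from 0.0562 to 0.0732. Gdf10, a growth factor of the TGF-beta superfamily, rose by 1.17 ± 0.34 (limma adjusted p = 0.0484). It was lost with sex as a term (0.0871) and with any 1 array left out (0.0669 to 0.146). Prox1, of supporting cells and glia of the cochlea, fell by 0.70 ± 0.12 (limma adjusted p = 0.00380) in all 3 of its probe sets. Of 10 hair cell genes 0 were called by limma and 0 reached an unadjusted p under 0.05. Notch3, of mural cells, rose by 0.28 (limma adjusted p = 0.0400), and not with sex as a term (0.160) or with any 1 array left out other than immediate replicate 3 (0.0612 to 0.127).

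Qk, named in the study's title, encodes Quaking, an RNA-binding protein that myelinating cells need for splicing and transport of myelin transcripts. Its brightest probe set lay at 11.19, 11.13 and 11.38 immediately and at 11.39, 11.51 and 11.38 at 1 day, with overlap (0.19 ± 0.07, limma adjusted p = 0.117). Of its 7 probe sets, 1 was called lower at 1 day (-0.70, limma adjusted p = 0.000651 over probe sets) and 1 higher (0.34, limma adjusted p = 0.00718 over probe sets). The direction for Qk therefore depends on the probe set, and the sources used here do not say which transcripts the 7 detect.

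Beside unexposed controls, the immediate group differed in 127 genes, 79 higher (0.579%) and 48 lower (0.352%), which is 0.931% of those tested. The 1-day group differed from the same controls in 434, 207 higher (1.52%) and 227 lower (1.66%), or 3.18%. These comparisons share arrays with each other and with the comparison of the noise groups, and all controls were female, so the lists are set side by side only. Of the 15 cAMP and CREB targets, 7 were higher than control immediately and 1 at 1 day. Of the 19 sterol genes, 5 were higher immediately and 2 lower at 1 day. Of the 32 macrophage genes, 0 were called immediately and 9 were higher at 1 day. Of the 20 chemokine genes, 0 were called immediately and 8 were higher at 1 day, and of the 25 interferon-response genes 0 and 3. Median differences from control were 0.74 immediately and -0.01 at 1 day for cAMP and CREB targets, 0.22 and -0.13 for sterol genes, -0.11 and 0.39 for macrophage genes, and 0.02 and 1.01 for interferon-response genes. Antigen presentation genes stood at -0.28 and 0.31.

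**Figure D5:**
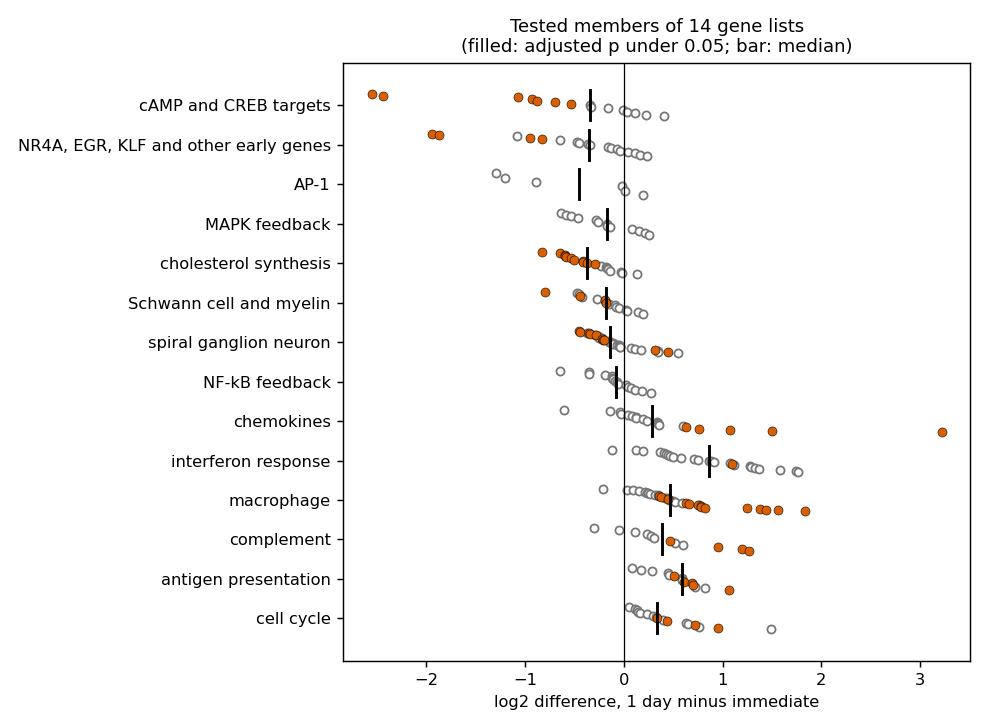
Log2 difference, 1 day minus immediate, of each tested member of 14 gene lists, with genes spread vertically by rank within a list. Filled points passed limma's adjusted p under 0.05, and a bar marks the list's median. Filled points lie left of 0 in the cAMP, early gene, sterol and myelin lists and right of 0 in the chemokine, macrophage, complement, antigen and cell cycle lists, while the interferon list is shifted by a median of 0.86 with 1 filled point.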

How the data were processed

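RNA of 15 mouse auditory nerve samples was measured on 1 Affymetrix array each, in 5 groups of 3. The deposited log2 values are the authors' own. Affymetrix Expression Console, RMA and MAS5 are named per the submitters' processing notes, with neither role nor version, so which method gave these values is not settled here. The values run from 2.06 to 14.63, and the number of arrays limits the precision.

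Of 45101 probe sets, 34945 have 1 gene symbol, 932 several and 9160 none, and 64 are controls. Of the annotated IDs, 34741 were found in GRCm38.p6. Each gene was read from the brightest, on average over the 15 arrays, of its 1-gene probe sets. The lowest 25% of 18193 genes (4.70 or less) were left out, which left 13644. Group means were fitted over all 15 arrays with limma 3.58.1 in R 4.3.3 (eBayes with trend, 10 residual degrees of freedom), p-values were adjusted by Benjamini-Hochberg over all tested genes, and genes under 0.05 were called. Probe sets were also fitted singly, without a filter. On simulated data for this contrast, with 200 changed genes among 13644, the fit recovered 78% of log2 changes of 0.5 and 98% of 1. The simulated noise was independent between genes and between arrays, with no sex difference, so these shares may not hold for the real arrays.

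The text names, apart from Xist, Tsix and Y-linked genes, the top 15 rises and top 15 falls by size among called genes whose groups do not overlap. It also names the top 3 called genes by size in any list that has 3 or more, and a fixed set of 24. Other genes were named to complete a list, after their values were seen. The members and lists were chosen with earlier results of these data known. No 2 arrays shared more than 3.67% of identical values. Alternatives changed the filter, probe set rule, eBayes options, array weights, scaling, samples, sex, replicate number and call rule. Promoter windows are from RefSeq, GRCm38.p6.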

Additional observations from a re-analysis of the deposited data

Results flagged for a closer look

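Probe sets that name no single gene carried signal outside the gene comparison. Together 149 of 10156 were called by limma (1.47%), 73 higher (0.719%) and 76 lower (0.748%). Of 9160 with no gene, 109 were called, 44 higher and 65 lower at 1 day. Of 932 with several genes, 36 were called, 28 higher and 8 lower. Of 64 control probe sets, 4 were called, 1 higher and 3 lower. The transferrin receptor control fell by 1.07 ± 0.17 at its 5′ end (limma adjusted p = 0.00381) and by 0.70 in its middle (limma adjusted p = 0.0163), and differed by -0.48 at its 3′ end (limma adjusted p = 0.0895). The gene's own probe set, Tfrc, fell by 0.59 ± 0.11 (limma adjusted p = 0.00572), from 11.38, 11.33 and 11.30 to 10.75, 10.72 and 10.77. The 18S ribosomal RNA control fell by 0.60 ± 0.13 at its 5′ end (limma adjusted p = 0.0264). Its middle differed by -0.35 (limma adjusted p = 0.243) and its 3′ end by -0.14 (limma adjusted p = 0.786). The set MURINE_b1 rose by 0.18 ± 0.04 (limma adjusted p = 0.0254).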

How the results depend on the processing

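The 1145 calls (548 higher, 597 lower) moved by less than 1.5 times under other filters, probe set rules, eBayes options and scalings, with 972 to 1637 called. Array weights gave 1898 (920 and 978), sex as a term 652 (254 and 398), male arrays alone 12 (5 and 7), and an unadjusted p under 0.05 with 1.5-fold 271 (150 and 121). Probe sets numbered 1716, and 982 with sex as a term. Leaving out 1 array gave 382 to 744 calls, 176 to 402 higher and 205 to 445 lower, from fewer arrays. The replicate block gave 1375 (636 and 739). Deviations of same-numbered arrays from their group means had correlations of 0.039, -0.294 and 0.046. Those of differently numbered arrays ran from -0.238 to 0.216. With 3 arrays a group, these values cannot show whether same-numbered samples shared a batch, which was not tested. Of 113 called genes followed one by one, 58 stayed called without each of the 6 arrays and 84 with sex as a term.

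Directions turned in 5 genes, and for Ccl2, Nfkbia and Socs3 the cause was not tested. Ccl2 gave -0.05 with array weights, -0.16 with sex as a term, -0.85 in males alone, -0.14 and -0.10 without immediate replicates 1 and 2, and -0.14 to 0.61 over the left-out arrays. Nfkbia gave -0.08 with sex as a term, -0.24 in males alone, -0.09 without immediate replicate 1, -0.01 without 1-day replicate 3, and -0.09 to 0.30 over the left-out arrays. Socs3 gave -0.14 with array weights, -0.19 with sex as a term, -1.15 in males alone, and -0.14, -0.38 and -0.21 without immediate replicate 1, immediate replicate 2 and 1-day replicate 2, with a range of -0.38 to 0.62 over the left-out arrays. Other probe sets turned Nfe2l2 to 1.99, with a mean of 0.51, and Qk to -0.70.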

Other observations

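Genes whose symbol starts with Zfp, mostly zinc finger proteins, were singled out after their values were seen. Of 295 tested, 29 were called lower at 1 day and 4 higher, with a median of -0.13 against 0.01 over all genes. Over all tested genes, 4.38% were lower and 4.02% higher. With sex as a term 23 were lower and 1 higher, with a median of -0.17, against 2.92% and 1.86% over all genes.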
